A study of Mus musculus with 6 samples.

Results

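ATP-binding cassette (ABC) transporter genes were compared between the F4/80high and F4/80low tumor-associated macrophages (TAMs) of mouse melanoma, one subfamily at a time and within each replicate pair. Members were the genes that the deposited tables class as protein-coding, whose symbol is Abc, a letter from a to g and a digit, and which held at least 10 counts summed over the 6 libraries. Of 23424 genes in the tables, 42 matched the symbol rule and 37 passed the count minimum. They comprise 12 of 13 Abca genes, 8 of 9 Abcb genes, 6 of 8 Abcc genes, all 4 Abcd genes, all 4 genes of the Abce and Abcf subfamilies and 3 of 4 Abcg genes. Abca4, Abcb11, Abcc12 and Abcg4 had 0 counts in every library and Abcc9 had 4 counts in all, and these genes were not tested. The symbol rule takes in the Abce and Abcf genes, which carry the ABC domains without being membrane transporters, and leaves out Tap1, Tap2 and Cftr, which belong to the same superfamily under other names.

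Both groups came from WT female C57Bl/6J mice that received YUMM1.7 cells, a mouse melanoma line, intradermally at 8 weeks of age and no treatment thereafter. On day 21, live CD45+CD11b+ cells were sorted by their F4/80 staining into F4/80high and F4/80low TAMs, which are the 2 groups, and F4/80 is the protein encoded by Adgre1. The study's methods also name a lineage-negative gate. Each subset has 3 libraries, each from 1 of 3 independent experiments with 10 pooled tumors, and each experiment gave 1 library of each subset, so equal replicate numbers pair the libraries. Replicates 1 and 2 formed batch 1 and replicate 3 formed batch 2. The F4/80high libraries held 30292061, 43604373 and 16045281 counts and the F4/80low libraries 32967733, 32560608 and 16204810 counts in replicates 1, 2 and 3. The libraries of replicate 3 stand apart from the rest, with 89.4 and 90.02% of their counts in protein-coding genes where the others had 97.4 to 98.1%. Macrophage genes were present in every library: 7 markers (Adgre1, Csf1r, Cd68, Itgam, Fcgr1, Lyz2 and Ptprc) summed to 5987 to 20953 CPM (the read count relative to the library size, scaled by the TMM method) in F4/80high TAMs and to 7717 to 9659 CPM in F4/80low TAMs. Adgre1 itself was at 273, 539 and 360 CPM in F4/80high TAMs and at 243, 326 and 183 CPM in F4/80low TAMs. It was higher in F4/80high TAMs in 3 of 3 pairs, but the groups overlapped (log2 fold change 0.67 ± 0.30 (SE), edgeR adjusted p = 0.67).

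ABC transporters use the energy of ATP binding and hydrolysis to move a substrate across a membrane, and the subfamilies differ in what they carry. The A subfamily and Abcg1 move lipids, and Abca1 and Abcg1 are the main routes by which macrophages pass cholesterol to apolipoprotein A-I and to high-density lipoprotein. The B subfamily holds the P-glycoproteins, which export drugs from cells, and carriers of mitochondria and lysosomes. The C subfamily exports organic anions, among them conjugates of glutathione, and the D subfamily serves peroxisomes and the lysosomal export of vitamin B12. Abce1 recycles ribosomes at the end of translation and the Abcf proteins act in translation.

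No ABC gene was called between the subsets in the main test, edgeR's quasi-likelihood test with batch as a term (calls at an adjusted p below 0.05 with a log2 fold change beyond 1 in either direction), and neither was any of the 14776 protein-coding genes tested (0%). Before adjustment, 10 of the 37 members (27.0%) had a p under 0.05, against 7.57% of all genes tested. Of these, Abca1, Abca9, Abcb1b, Abcc3 and Abce1 were higher in F4/80high TAMs, where the share of all genes was 3.26%. Abca6, Abca7, Abca13, Abcc2 and Abcd2 were lower in F4/80high TAMs, where the share of all genes was 4.30%. Without the libraries of replicate 3 these counts were 3 higher, against 1.32% of all genes, and 5 lower, against 2.52%. When pairs were blocked by experiment rather than by batch, 12 members passed the same unadjusted threshold, against 9.84% of all genes. They were those 10 with Abca8b and Abcc4, 5 of them higher (3.96% of all genes) and 7 lower (5.88%) in F4/80high TAMs. With DESeq2 and batch as a term, 4 members were called, against 1.02% of all genes: Abcb1b and Abcc3 were higher and Abca6 and Abcc2 were lower in F4/80high TAMs. With that block, edgeR called no member, against 0.514% of all genes, and the lowest adjusted p among the members was that of Abcb1b (0.095). DESeq2 with the block called 6 members, those 4 with Abca8b and Abca13, both lower in F4/80high TAMs, against 2.42% of all genes. Abca6 and Abca8b reached the minimum of 10 counts only through F4/80low TAMs, where they are high, so their calls and counts are no independent support.

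Counted by pair, 9 members were higher and 8 lower in F4/80high TAMs in 3 of 3 pairs (17 of 37, 45.9%), against 31.7% of all genes tested. The CPM of the subsets did not overlap for 8 members (21.6%), against 5.16% of all genes: Abca1, Abcb1b, Abce1 and Abcg3 were higher (2.27% of all genes) and Abca6, Abca7, Abca13 and Abcd2 were lower (2.88%) in every F4/80high library. The median log2 fold change over the 37 members was 0.03, beside 0.01 over all genes tested, and the median of its absolute value was 0.59, beside 0.35. By subfamily the median was -0.28 for Abca, 0.27 for Abcb, -0.17 for Abcc, 0.14 for Abcd, 0.13 for Abce with Abcf and 0.13 for Abcg. These medians are not stable: that of Abcb was -0.045 with the replicate block and that of Abca 0.052 when only genes with at least 10 counts in every library were kept. Estimates of both signs stood in each of the A, B, C, D and G subfamilies. In bulk samples fewer cells of a type and less RNA per cell cannot be told apart, and this holds for every difference given here.

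**Figure D1:**
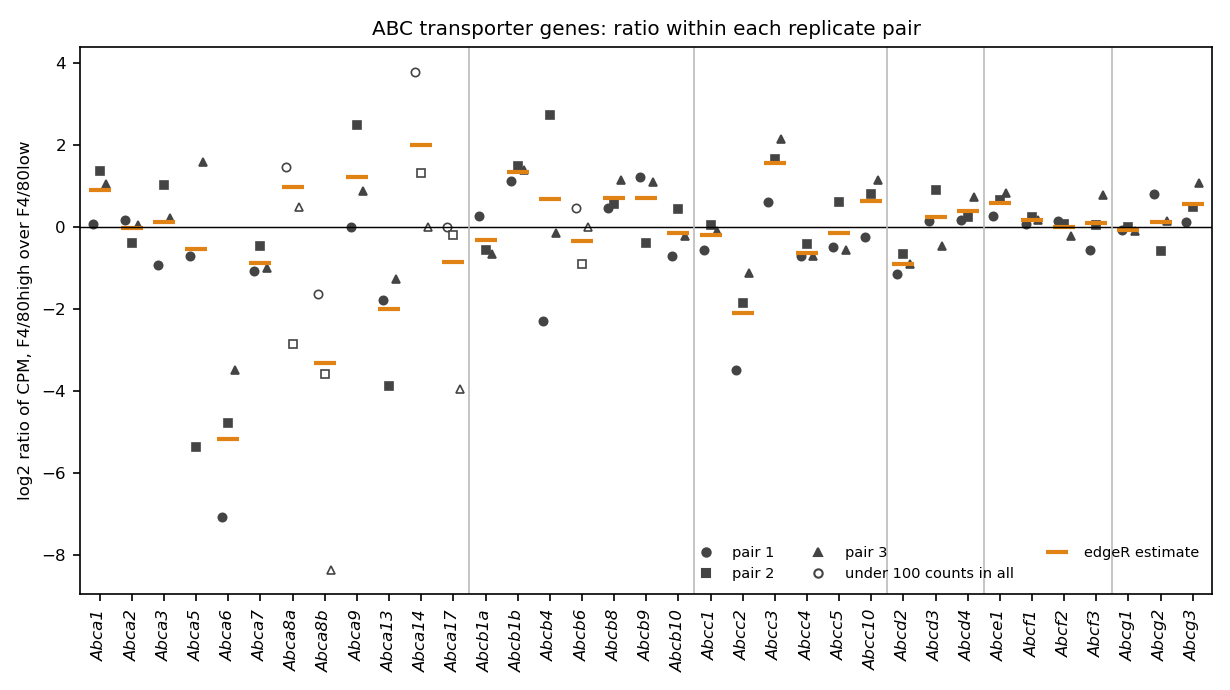
Each symbol is the log2 ratio of CPM, F4/80high over F4/80low, of 1 ABC transporter gene (35 genes are plotted) in 1 replicate pair, grouped by subfamily along the horizontal axis, and the bar is the edgeR estimate with batch as a term. Abcb1b (1.12 to 1.49) and Abcd2 (-1.14 to -0.65) lie on one side of 0 with their 3 pairs close together, while Abcb4 spreads from -2.30 to 2.72, and open symbols mark genes with under 100 counts over the 6 libraries.

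Promoter sequence is shown for 4 members that the results turn on: Abca1 and Abca7, the lipid exporters whose estimates had opposite signs, and Abcb1a and Abcb1b, the P-glycoprotein pair of which Abcb1b was called by DESeq2 and Abcb1a passed no test between them. RefSeq promoters (250 bases before to 50 bases after the start, GRCm38.p6) matched 28 of the 37 members. Each is written 5′ to 3′ along the gene's strand, with the motif matches in capitals, for chr4:53159846-53160145 (minus strand), chr10:79996244-79996543 (plus strand), chr5:8566841-8567140 (plus strand) and chr5:8797897-8798196 (plus strand) in that order.
Abca1: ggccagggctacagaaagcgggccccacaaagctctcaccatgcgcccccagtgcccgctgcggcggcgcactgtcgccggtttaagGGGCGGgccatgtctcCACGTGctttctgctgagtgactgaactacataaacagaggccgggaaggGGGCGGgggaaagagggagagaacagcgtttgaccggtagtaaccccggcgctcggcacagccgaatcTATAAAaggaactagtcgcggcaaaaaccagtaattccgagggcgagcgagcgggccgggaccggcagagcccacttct
Abca7: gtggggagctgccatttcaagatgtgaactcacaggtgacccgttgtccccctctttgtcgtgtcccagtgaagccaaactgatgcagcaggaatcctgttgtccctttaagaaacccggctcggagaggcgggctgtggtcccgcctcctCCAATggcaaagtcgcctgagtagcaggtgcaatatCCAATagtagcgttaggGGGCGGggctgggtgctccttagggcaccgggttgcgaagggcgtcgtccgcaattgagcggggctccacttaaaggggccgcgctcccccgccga
Abcb1a: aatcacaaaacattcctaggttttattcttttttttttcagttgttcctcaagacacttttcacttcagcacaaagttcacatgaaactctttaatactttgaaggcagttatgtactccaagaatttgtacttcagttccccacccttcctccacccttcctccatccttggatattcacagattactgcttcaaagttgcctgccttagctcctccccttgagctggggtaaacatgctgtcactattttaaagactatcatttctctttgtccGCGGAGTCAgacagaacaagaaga
Abcb1b: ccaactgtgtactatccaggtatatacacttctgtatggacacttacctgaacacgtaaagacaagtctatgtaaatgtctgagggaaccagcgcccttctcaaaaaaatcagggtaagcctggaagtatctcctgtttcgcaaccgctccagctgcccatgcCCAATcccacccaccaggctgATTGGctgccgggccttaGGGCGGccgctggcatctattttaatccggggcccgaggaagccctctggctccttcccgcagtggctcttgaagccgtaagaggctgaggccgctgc
In Abca1 the capitals mark, from the 5′ end, a GC box (GGGCGG, position -163 from the start), an E-box (CACGTG, -147), a second GC box (-97) and a TATA box (TATAAA, -29). In Abca7 they mark CCAAT boxes at -99 and -63 and a GC box at -46. In Abcb1b they mark CCAAT on the plus strand at -87 and on the minus strand at -66, and a GC box at -48. The Abcb1a window holds none of these letters. It has 1 match to the core of the antioxidant response element (TGACNNNGC, minus strand, position 26), and so no listed motif in common with the Abcb1b window. The Abcb1a window, at the RefSeq start (chr5:8566841-8567140), lies far upstream of the gene start in GENCODE M21 (8660077). Sequence at that GENCODE start was not searched, while the Abcb1b window spans its GENCODE start (8798147). Which Abcb1a start these cells used was not tested.

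The motifs were searched on both strands in all 32544 distinct promoter sequences of that length. A member was counted if any of its promoters had a match, while the percentages are per distinct promoter. GGGCGG was found for 17 of the 28 matched members and in 35.9% of all promoters, and CCAAT for 11 of 28 and in 37.4%. CACGTG was in 5 of 28 and 7.17%, TGACNNNGC in 5 of 28 and 12.4%, the nuclear receptor half-site AGGTCA in 4 of 28 and 16.2%, and TATAAA in 3 of 28 and 13.6%. The AP-1 motif TGANTCA was in 0 of 28 and 7.79%. A match describes the letters and is no measured site.

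Abca1 (ENSMUSG00000015243; chromosome 4, 53030787 to 53159895, minus strand, in GRCm38) was the most abundant member of its subfamily per length, averaged over the 6 libraries. Its level was 104, 230 and 103 CPM in F4/80high replicates 1, 2 and 3 and 99.3, 89.1 and 49.8 CPM in the F4/80low replicates. The ranges did not overlap, but pair 1 differed little, with log2 ratios of 0.07, 1.37 and 1.05 in pairs 1, 2 and 3. The log2 fold change fitted by edgeR, 0.90 ± 0.30 (SE), had an adjusted p = 0.54 and became 0.50 when F4/80high replicate 2 was left out. Abca7 (chromosome 10, 79996494 to 80015572, plus strand), a phospholipid exporter related to Abca1 that also acts in phagocytosis, had an estimate of the other sign. It was at 48.0, 44.5 and 36.0 CPM in F4/80high TAMs and at 101, 61.6 and 72.1 CPM in F4/80low TAMs. Every F4/80low library was above every F4/80high library, with a log2 fold change of -0.88 ± 0.25 (SE, edgeR adjusted p = 0.51).

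The genes of the Abca6 group, Abca8b, Abca8a, Abca9, Abca6 and Abca5, lie side by side on chromosome 11 within 405.5 kb and on the same strand. Abca9 (110100749 to 110168196), the most expressed of them, was at 19.3, 57.0 and 12.0 CPM in F4/80high TAMs and at 19.2, 10.2 and 6.49 CPM in F4/80low TAMs. The groups overlapped, since pair 1 had almost equal levels (log2 ratio 0.01) and pairs 2 and 3 differed by 2.48 and 0.88. The estimate for Abca9 was 1.23 ± 0.44 on the log2 scale (SE, edgeR adjusted p = 0.57) and became 0.56 when F4/80high replicate 2 was left out. Its neighbour Abca6 (110176820 to 110251776) held nearly all of its counts in F4/80low TAMs, with 84, 104 and 12 counts there and 0, 4 and 1 counts in F4/80high TAMs. In CPM these are 2.10, 2.55 and 1.37 against 0, 0.078 and 0.11, and the groups did not overlap. The fitted log2 fold change of Abca6, -5.17 ± 1.31 (SE, edgeR adjusted p = 0.46), depends on the prior count because F4/80high TAMs held so few counts. DESeq2 called Abca6 (adjusted p = 0.0062), which reached the count minimum only through its F4/80low libraries. At the far end of the group, Abca8b had 7, 0 and 0 counts in F4/80high TAMs and 23, 7 and 45 in F4/80low TAMs, so that a single library, F4/80low replicate 3, held most of its counts. Abca8a and Abca5 differed in no one direction over the pairs. Among Abca6, Abca8a, Abca8b and Abca9, shared sequence was short. Of the distinct 50-base windows of all annotated transcripts, 0.24% of those of Abca6 occur in Abca9, and 1.64% of those of Abca8a occur in Abca8b.

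**Figure D2:**
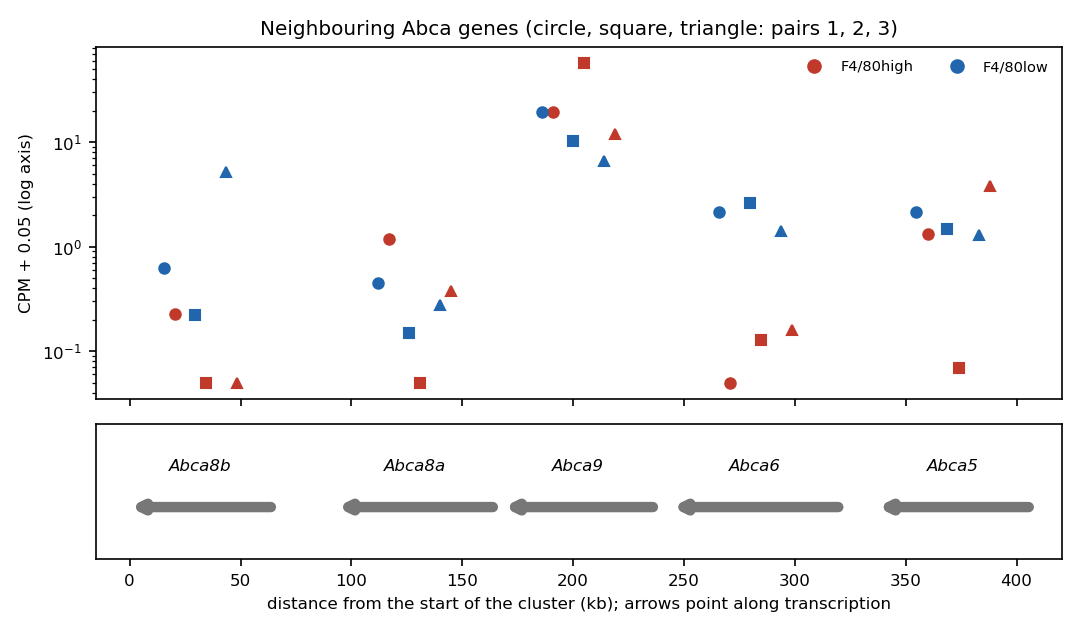
The lower panel maps the 5 Abca genes of chromosome 11 by distance in kb from the start of the group, and the upper panel gives the CPM (plus 0.05, log axis) of each library, spread sideways around the centre of its gene, with red for F4/80high and blue for F4/80low. Abca9 was the most expressed of them in all 6 libraries, and the 3 F4/80high values of Abca6 lie below its 3 F4/80low values.

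Abca13, the longest member by genome span (492318 bases), was low in both subsets. It was at 1.61, 0.25 and 2.70 CPM in F4/80high TAMs and at 5.56, 3.93 and 6.49 CPM in F4/80low TAMs. All F4/80low values were above all F4/80high values (log2 fold change -2.002 ± 0.73 (SE), edgeR adjusted p = 0.58). Leaving out F4/80high replicate 1 moved the Abca13 estimate to -2.84, and leaving out F4/80high replicate 2 moved it to -1.47. Abca2, a lipid carrier of endosomes and lysosomes, and Abca3, best known for the surfactant lipids of the lung, lay between 14.8 and 49.9 CPM and changed direction between pairs. Abca14 and Abca17 stayed at or below 0.33 CPM in every library.

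Within the B subfamily, Abcb1b (ENSMUSG00000028970; chromosome 5, 8798147 to 8866315, plus strand), one of the mouse genes of P-glycoprotein, had the smallest p of all members. It was at 21.6, 26.2 and 22.7 CPM in F4/80high TAMs (mean 23.5 ± 2.38, SD, n = 3) and at 9.95, 9.28 and 8.65 CPM in F4/80low TAMs (mean 9.29 ± 0.65, SD, n = 3). The groups lie well apart, and the ratios of the 3 pairs were close, with log2 values of 1.12, 1.49 and 1.39. Abcb1b was thus 2.53-fold higher in F4/80high TAMs, with a log2 fold change of 1.34 ± 0.27 (SE, adjusted p = 0.44 with edgeR and 0.0018 with DESeq2). Leaving out any 1 library gave log2 fold changes between 1.23 and 1.42, and without replicate 3 of both subsets the value was 1.32.

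Abcb1a, its paralog 49.6 kb away on the same strand and also a P-glycoprotein gene, is given although it was chosen after the values were seen. It was at 19.3, 13.4 and 34.6 CPM in F4/80high TAMs and at 16.0, 19.8 and 54.2 CPM in F4/80low TAMs. The groups overlapped (log2 fold change -0.30 ± 0.27 (SE), edgeR adjusted p = 0.81), and both libraries of replicate 3 were above all those of batch 1. As a share of the counts of both genes, Abcb1b made up 52.9% (95% Wilson interval 50.4 to 55.3), 66.2% (64.1 to 68.2) and 39.6% (35.5 to 43.8) in F4/80high replicates 1, 2 and 3. In the F4/80low replicates it made up 38.3% (35.4 to 41.3), 31.9% (29.3 to 34.6) and 13.8% (11.1 to 16.9). The share was higher in F4/80high TAMs in every pair, and these intervals cover counting error only. The paralogs share 889 windows of 50 bases in their annotated transcripts, 16.3% of those of Abcb1a and 11.1% of those of Abcb1b. Counts may therefore be split between them to a degree that depends on the counting rule. An antisense gene, Gm5106, overlaps an exon of Abcb1b, and without strand-specific counting its reads could not be told apart from those of Abcb1b. The third gene of the locus, Abcb4, which moves phosphatidylcholine, was at 0.76, 10.1 and 2.05 CPM in F4/80high TAMs and at 3.78, 1.52 and 2.28 CPM in F4/80low TAMs, with opposite signs in pairs 1 and 2.

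**Figure D3:**
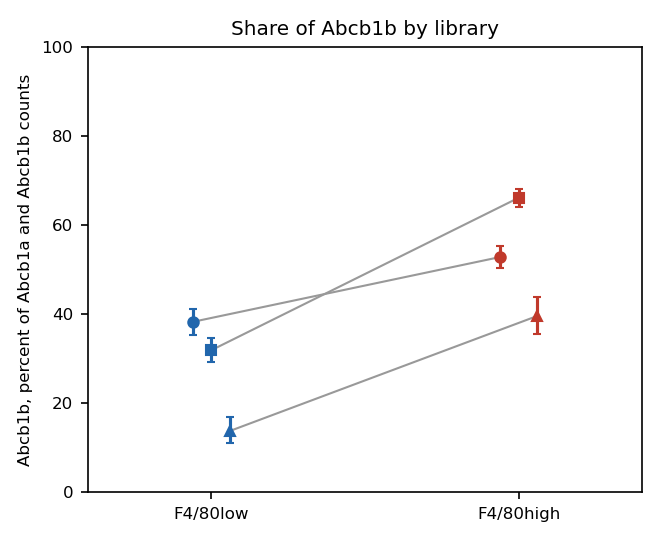
The vertical axis is the percent of the counts of Abcb1a and Abcb1b together that belong to Abcb1b, with 95% Wilson intervals, for the 3 libraries of each subset, and lines join the libraries of a pair (circle, square and triangle for pairs 1, 2 and 3). The share rises along every line, from 38.3 to 52.9%, from 31.9 to 66.2% and from 13.8 to 39.6%.

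Abcb8, a mitochondrial carrier chosen after its values were seen, was higher in F4/80high TAMs in 3 of 3 pairs, at 17.5, 16.8 and 5.29 CPM against 12.7, 11.3 and 2.39 CPM (log2 fold change 0.70 ± 0.32 (SE), edgeR adjusted p = 0.68). Replicate 3 had the lowest Abcb8 in both subsets, and the groups overlapped. Abcb10, a mitochondrial carrier linked to haem synthesis, and Abcb9, a peptide carrier of lysosomes, changed direction between pairs. Abcb6 had at most 0.12 CPM in any library.

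The C subfamily held estimates of opposite sign in genes with related substrates. Abcc3 (ENSMUSG00000020865; chromosome 11, 94343295 to 94392997, minus strand), an exporter of glucuronide conjugates and bile acids, was at 38.9, 115 and 34.3 CPM in F4/80high TAMs and at 25.5, 36.3 and 7.74 CPM in F4/80low TAMs. Ranges overlapped across experiments, while every pair was higher in F4/80high TAMs (log2 ratios 0.61, 1.66 and 2.15). The log2 fold change was 1.57 ± 0.41 (SE), a 2.97-fold difference, with an adjusted edgeR p of 0.47, and DESeq2 called Abcc3 (adjusted p = 0.031). Without F4/80high replicate 1, edgeR also called it (adjusted p = 0.046, log2 fold change 2.00), in a fit that called 55 of 14776 genes. Without F4/80high replicate 2 the value was 1.06 (edgeR adjusted p = 0.63).

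Abcc2 (chromosome 19, 43782192 to 43840740, plus strand), an exporter of conjugates of glutathione, glucuronic acid and sulfate, went the other way at a much lower level in batch 1. It was at 0.43, 0.95 and 12.3 CPM in F4/80high TAMs and at 4.94, 3.46 and 26.8 CPM in F4/80low TAMs. The F4/80low library was the higher in every pair (log2 ratios -3.48, -1.85 and -1.12), and the libraries of replicate 3 were above the others in both subsets. In log2 units the difference was -2.09 ± 0.49 (SE, edgeR adjusted p = 0.46, DESeq2 adjusted p = 0.0091).

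Abcc4, which exports cyclic nucleotides and prostaglandins, was lower in F4/80high TAMs in 3 of 3 pairs, at 12.6, 9.02 and 34.9 CPM against 20.7, 12.1 and 56.7 CPM. Its log2 estimate was -0.63 ± 0.30 (SE, edgeR adjusted p = 0.68) and became -0.39 when F4/80low replicate 1 was left out. Abcc1, the exporter of leukotriene C4 and of glutathione conjugates, lay between 33.8 and 162 CPM, Abcc5, a cyclic nucleotide exporter, between 23.2 and 902 CPM, and Abcc10 between 0.91 and 7.90 CPM, each with pairs of both signs.

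**Figure D4:**
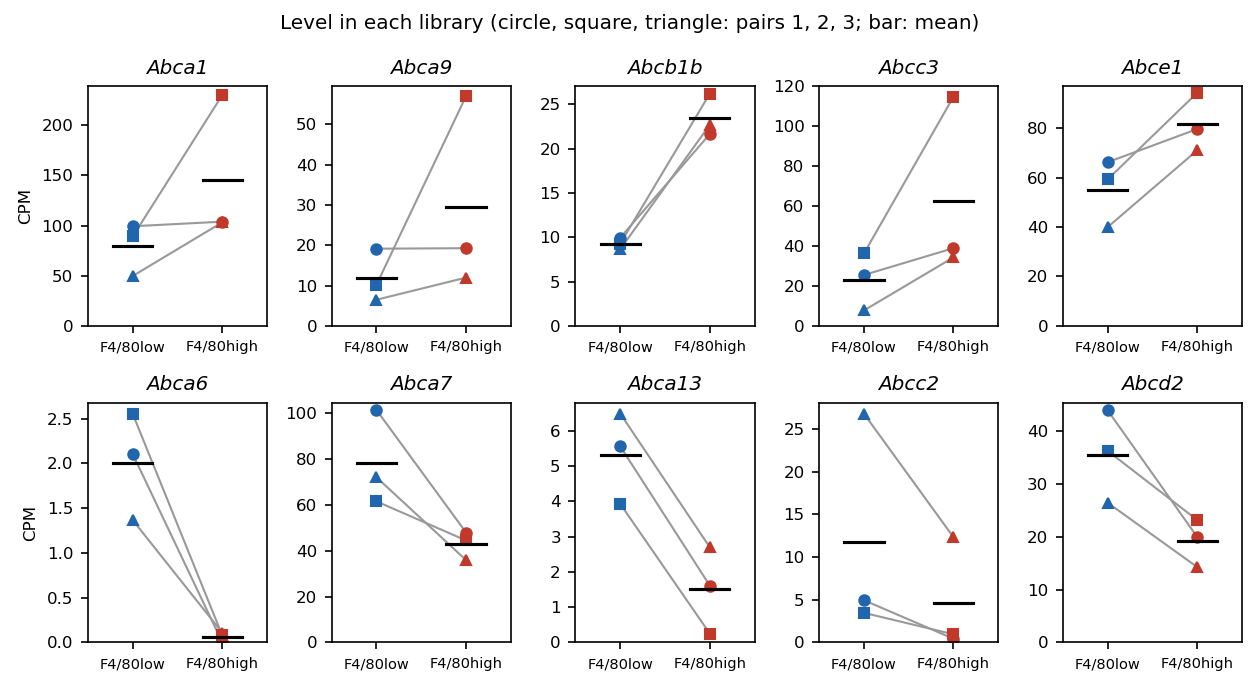
The CPM of the 10 members with an unadjusted edgeR p under 0.05 is plotted for each library, with F4/80low in blue and F4/80high in red, a line for each replicate pair and a bar at the mean of the 3 libraries. Abcb1b goes from 8.65 to 9.95 CPM in F4/80low TAMs to 21.6 to 26.2 CPM in F4/80high TAMs, while the mean of Abca1 and Abca9 in F4/80high TAMs is set largely by replicate 2 (230 and 57.0 CPM).

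In the D subfamily, Abcd2, a half-transporter that brings very long-chain fatty acids into peroxisomes, was lower in F4/80high TAMs. It was at 19.9, 23.1 and 14.3 CPM there and at 43.9, 36.2 and 26.4 CPM in F4/80low TAMs, with no overlap and log2 ratios of -1.14, -0.65 and -0.89. This is a log2 difference of -0.89 ± 0.24 (SE, edgeR adjusted p = 0.48, DESeq2 adjusted p = 0.058). Abcd4, which exports vitamin B12 from lysosomes, was slightly higher in F4/80high TAMs in 3 of 3 pairs (log2 ratios 0.18, 0.25 and 0.74), with overlapping groups (0.39 ± 0.34, edgeR adjusted p = 0.80), and its estimate ranged from 0.17 without F4/80high replicate 2 to 0.65 without F4/80low replicate 2. Abcd3, another peroxisomal carrier, lay between 15.7 and 36.6 CPM with pairs of both signs.

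Abce1, the ribosome recycling factor, was at 79.6, 94.3 and 71.0 CPM in F4/80high TAMs and at 66.2, 59.3 and 40.0 CPM in F4/80low TAMs. The groups did not overlap and all pairs were higher in F4/80high TAMs (log2 ratios 0.27, 0.67 and 0.83), for a log2 fold change of 0.59 ± 0.22 (SE, edgeR adjusted p = 0.60). Abcf1 was higher in 3 of 3 pairs by small amounts (log2 ratios 0.07, 0.25 and 0.16), with 81.4, 80.6 and 412 CPM against 77.3, 67.5 and 368 CPM. Abcf2 lay between 48.6 and 57.6 CPM in all 6 libraries, and Abcf3 lay between 23.3 and 50.6 CPM.

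Abcg1 (chromosome 17, 31057675 to 31117988, plus strand), the exporter of cholesterol to high-density lipoprotein, was nearly equal in the subsets of each experiment and very unequal between experiments. It was at 75.2, 58.9 and 5170 CPM in F4/80high TAMs and at 79.6, 58.6 and 5544 CPM in F4/80low TAMs. The log2 ratios of the pairs were -0.08, 0.01 and -0.10, and the fitted value was -0.06 ± 0.23 (SE, edgeR adjusted p = 0.96). Abcg3, a rodent gene of the subfamily, was at 32.0, 40.7 and 55.3 CPM in F4/80high TAMs and at 29.5, 29.0 and 26.3 CPM in F4/80low TAMs. It was higher in every F4/80high library than in any F4/80low library (0.56 ± 0.26, edgeR adjusted p = 0.68). Pair ratios of Abcg3 were 0.12, 0.49 and 1.07 in log2, and leaving out either library of replicate 3 lowered the estimate to 0.31. With batch as a term, the library of replicate 3 that is left then has no weight in the subset estimate. Abcg2, the breast cancer resistance protein, chosen after its values were seen, lay between 2.05 and 13.1 CPM with pairs of both signs (0.13 ± 0.40, edgeR adjusted p = 0.96).

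The batches differed far more than the subsets for several members. At an adjusted edgeR p under 0.05, 14 of the 37 members (37.8%) differed between batches, against 42.4% of all genes tested. In batch 2, 9 members were higher (24.3%, against 19.8% of all genes) and 5 lower (13.5%, against 22.6%). Abcg1 had the largest difference (log2 6.30 ± 0.26, SE) and ranked 92 of 14776 genes from the top. It alone made up 72.3 and 71.9% of all ABC counts in the libraries of replicate 3, and 4.75 to 8.02% in those of batch 1. Abcc5 (log2 4.67), Abcc2 (3.44), Abcf1 (2.35) and Abcc1 (1.85) were also higher in batch 2, and Abcg2 (-2.20), Abcb8 (-1.99), Abcc3 (-1.54) and Abca9 (-1.43) were lower. The order of levels per length therefore depended on the batch. Among the highest in batch 1 were Abcf2 (21.0 CPM per kb, mean of 4 libraries), Abce1 (19.6), Abcf1 (17.4) and Abcg1 (16.7), whose values lay close together. In batch 2 they were Abcg1 (1317 CPM per kb, mean of 2 libraries), Abcf1 (88.4) and Abcc5 (71.7). An rRNA gene annotated within an intron of Abcg1, Gm25447, held 0 counts in both libraries of replicate 3. Batch 2 is a single experiment, so batch and experiment cannot be told apart.

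**Figure D5:**
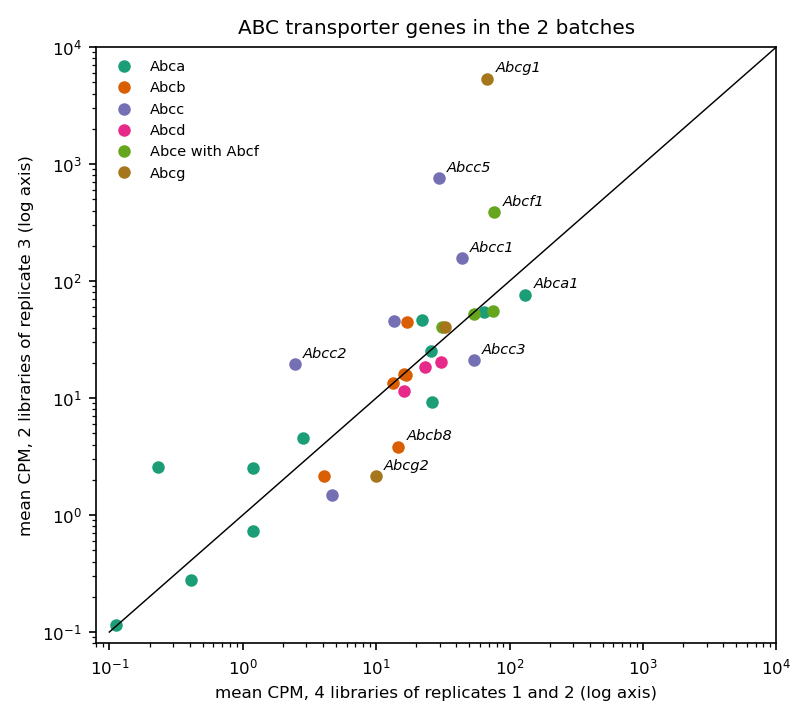
Each point is 1 of those 35 ABC transporter genes, where it had counts in both batches, coloured by subfamily, with its mean CPM in the 4 libraries of replicates 1 and 2 on the horizontal axis and in the 2 libraries of replicate 3 on the vertical axis (both log axes), and the line marks equal levels. Abcg1 stands farthest above the line, followed by Abcc5, while Abcb8 and Abcg2 lie below it.

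Other genes of the pathways that these transporters serve were counted from lists. Of 23 sterol genes tested, 3 were higher in F4/80high TAMs at an unadjusted edgeR p under 0.05 (3.26% of all genes) and 0 lower (4.30% of all genes), with a list median of 0.01. Apoe, the apolipoprotein that accepts cholesterol from macrophages, was at 5331, 9697 and 2393 CPM in F4/80high TAMs and at 2002, 5335 and 623 CPM in F4/80low TAMs (log2 fold change 1.33 ± 0.41 (SE), edgeR adjusted p = 0.52, and 0.036 under the replicate block). Pltp, the phospholipid transfer protein, was at 104, 233 and 33.7 CPM against 65.3, 80.6 and 13.4 CPM (1.25 ± 0.31, edgeR adjusted p = 0.46, DESeq2 adjusted p = 0.033). Ch25h, which makes 25-hydroxycholesterol, was at 9.95, 117 and 10.5 CPM against 2.15, 23.9 and 2.62 CPM (2.20 ± 0.96, edgeR adjusted p = 0.65, and 0.028 under the replicate block). These 3 genes were higher in F4/80high TAMs in every pair, as Abca1 was, while the groups overlapped for each. DESeq2 with batch called Pltp alone of the list (adjusted p = 0.66 for Apoe and 0.59 for Ch25h). The replicate block in edgeR called Apoe and Ch25h alone. Nr1h3, which encodes the liver X receptor alpha that activates Abca1 and Abcg1, was at 3.46 to 19.1 CPM in F4/80high TAMs and 3.19 to 9.11 CPM in F4/80low TAMs (0.61 ± 0.49, edgeR adjusted p = 0.79).

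Among 20 genes of glutathione and leukotriene metabolism, whose products the C subfamily exports, 0 were higher (3.26% of all genes) and 5 were lower (4.30% of all genes) in F4/80high TAMs at an unadjusted edgeR p under 0.05, with a list median of -0.23. Gsr, glutathione reductase, was at 407, 168 and 662 CPM in F4/80high TAMs and at 1009, 678 and 1518 CPM in F4/80low TAMs. All F4/80low libraries were above all F4/80high libraries (log2 fold change -1.43 ± 0.35 (SE), edgeR adjusted p = 0.46, 0.032 under the replicate block and 0.010 with DESeq2). Alox5, the first enzyme of leukotriene synthesis, was at 74.7, 117 and 39.5 CPM against 170, 192 and 98.5 CPM (-1.05 ± 0.25, edgeR adjusted p = 0.46, DESeq2 adjusted p = 0.025). Mgst1, a microsomal glutathione transferase, was at 52.6, 62.6 and 21.5 CPM against 99.8, 96.4 and 67.1 CPM with no overlap (-1.05 ± 0.26, edgeR adjusted p = 0.46, DESeq2 adjusted p = 0.032). Ggt5 and Alox5ap were the other genes of the 5. With the replicate block, edgeR called Gsr alone of the list (adjusted p = 0.073 for Alox5).

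In the remaining lists the counts at an unadjusted edgeR p under 0.05 stood beside 7.57% of all genes tested. There was 1 of 17 peroxisome genes (Decr2, higher in F4/80high TAMs), 1 of 8 cobalamin genes (Mmachc, higher), 1 of 19 mitochondrial haem and iron-sulfur genes (Uros, higher) and 1 of 14 translation genes (Gspt2, lower). None of the 8 genes of a list that joins peptide loading, the TAP genes and Cftr passed (0 with an unadjusted p under 0.05 and 0 by DESeq2). Tap1 was at 104 to 220 CPM in F4/80high TAMs and 119 to 226 CPM in F4/80low TAMs. Cftr had an estimate of 3.86 ± 2.13 (SE, edgeR adjusted p = 0.70), with 228 counts in F4/80high replicate 1 and at most 17 in any other library. The channel subunit Kcnj8, a partner of Abcc9, was the 1 gene tested of its list, with 0 passing and a median of 0.33.

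Estimates for markers of other cell types also differed between the subsets. Of all genes tested, 15.7% were lower and 16.0% higher in F4/80high TAMs in 3 of 3 pairs. At an unadjusted edgeR p under 0.05, 4.30% of all genes were lower and 3.26% higher. All 8 neutrophil markers (S100a8, S100a9, Ly6g, Retnlg, Cxcr2, Mmp8, Camp and Ltf) were lower in F4/80high TAMs in 3 of 3 pairs, 7 of them with an unadjusted edgeR p under 0.05, and they summed to 471 to 1746 CPM there and to 1019 to 3667 CPM in F4/80low TAMs. All 8 eosinophil markers were lower, 6 of them with an unadjusted edgeR p under 0.05, with sums of 93.6 to 187 CPM and 270 to 620 CPM, and the granule gene Epx was at or below 1.45 CPM in all libraries. The 6 dendritic markers (73.4 to 262 CPM against 132 to 474 CPM), the 6 fibroblast markers (438 to 1526 CPM against 1047 to 1887 CPM), the 5 mast cell and basophil markers (2.70 to 94.7 CPM against 15.4 to 395 CPM) and the 3 erythroid markers (11.2 to 63.3 CPM against 15.9 to 111 CPM) had lower estimates in F4/80high TAMs, with 1, 1, 0 and 0 genes at an unadjusted edgeR p under 0.05. The 5 T and NK cell markers had higher estimates there (97.0 to 814 CPM against 42.7 to 376 CPM, 1 gene at that p), but 0 were higher in 3 of 3 pairs. Lower there in 3 of 3 pairs were 6 eosinophil, 5 dendritic, 4 fibroblast, 2 mast cell and basophil and 1 erythroid markers. B cell markers (9.50 to 126 CPM against 6.03 to 116 CPM) had 0 genes at that p and the 4 endothelial markers tested (31.9 to 81.7 CPM against 38.5 to 87.2 CPM) had 1. Of the melanoma genes, Mlana had 1 count in all, and the 2 tested, Pmel and Sox10, summed to at most 3.07 CPM. Krt10, the keratinocyte gene tested, was at most 1.82 CPM. The part of other cells in the lower Abca6, Abca7, Abca13, Abcc2 and Abcd2 and in the higher Abca1, Abca9, Abcb1b, Abcc3 and Abce1 of F4/80high TAMs was not tested.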

How the data were processed

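Bulk RNA-seq was analysed in 6 libraries, 3 of each TAM subset. The authors deposited a table of raw read counts per gene for each library, with gene length and biotype and no normalization. The poly(A) libraries were processed with the pipeline of a sequencing center. The aligner, genome build, annotation, counting rule and strand are not given in the sources used here. Gene positions and overlaps come from a match of gene IDs to GENCODE M21 (GRCm38). The deposited length equals the merged exon length there for 26 of the 37 members, 19 are overlapped by another gene and 8 of these in an exon.

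In R 4.3.3, edgeR 4.0.16 (TMM, quasi-likelihood test, terms for batch and subset) was run on the 14776 genes that the tables class as protein-coding with at least 10 counts in all. Adjusted p-values are Benjamini-Hochberg over all of them, and SE is the standard error of the log2 fold change, positive where F4/80high TAMs are higher. DESeq2 1.42.0 was an alternative, since the study used it. Batches were read from a plot in the study's supplement. Pair ratios used a prior count of 0.5. A level below 3 counts was taken as not detectable. A count of 3 was 0.069 to 0.187 CPM of a library's total without TMM scaling. In the TMM-scaled CPM given here it was 0.058 in F4/80high replicate 2 and 0.32 in F4/80high replicate 3. Named members are, in each subfamily, the highest per length, those with an unadjusted p under 0.05 and the smallest p in each direction, with Abca1, Abcg1, Abcd4 and Abce1 by role. Some genes that meet this rule are counted but not reported here. Abcb1a, Abcb8 and Abcg2 were added after values were seen, and other members are given by range. The members and lists were chosen with earlier results of these data known. No library was a copy of another. The pairing rests on the study's account that both subsets were sorted from each experiment. After removal of group means the libraries of a pair correlated across 10089 genes (r = 0.74, 0.73 and 0.91 in pairs 1, 2 and 3). Libraries of different experiments were not correlated in this way, so these values cannot test the pairing. With batch as a term, p-values measure the spread left between libraries after batch and subset means are fitted, without the pairing. Batch 2 is 1 experiment, so its offset from the other experiments is not part of that spread. With the replicate block, p-values measure the spread of the subset difference over 3 experiments.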

Additional observations from a re-analysis of the deposited data

How the results depend on the processing

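Counts of called members depended on the tool and the model. The main test called 0, edgeR with the replicate block 0, DESeq2 with batch 4 and DESeq2 with the replicate block 6. Leaving out each library gave 0 to 1 calls, the 1 being Abcc3 without F4/80high replicate 1. That fit called 55 of the 14776 genes tested, against 0 in the main test. The 5 members higher and 5 lower in F4/80high TAMs at an unadjusted edgeR p under 0.05 became 1 and 2 with no batch term, 3 and 5 without replicate 3 of both subsets, and 2 to 6 and 4 to 7 on leaving out each library. The share of all genes at that threshold, in either direction, moved as well, from 7.57% to 1.76% with no batch term, 3.84% without replicate 3 and 3.80 to 13.5% on leaving out each library. The fit with the replicate block in place of batch, which follows the pairing of the experiments, changed no edgeR call of a member, and it moved the Abcb median from 0.27 to -0.045 (-0.055 with DESeq2) and, with DESeq2, the Abca median from -0.28 to -0.62. The Abca median was 0.015 with no batch term and 0.052 for genes with at least 10 counts in every library, and the Abcb median was 0.68 with edgeR's own expression filter and 0.69 for genes with at least 10 counts in every library. On leaving out each library the medians ranged from -1.45 to -0.014 (Abca), -0.21 to 0.33 (Abcb), -0.38 to -0.054 (Abcc), -0.075 to 0.23 (Abcd), 0.068 to 0.25 (Abce with Abcf) and -0.14 to 0.34 (Abcg). The Abca median was -1.45 without F4/80high replicate 1, and the Abcb and Abcd medians were lowest without F4/80high replicate 2. The sign turned for estimates near 0. Abcc5 was 0.062 without replicate 3 of both subsets. With batch as a term, leaving out either library of replicate 3 left the other without weight in the subset estimate. Both such fits therefore amount to leaving out that pair. On leaving out each library Abcc5 ranged from -0.40 to 0.062, Abcg1 from -0.18 to 0.067 and Abcg2 from -0.14 to 0.34. The library left out where the sign turned was either library of replicate 3 (Abcc5), F4/80low replicate 1 (Abcg1) and replicate 1 of either subset (Abcg2). The cause of these shifts was not tested. Depth limits Abca6, Abca8a, Abca8b, Abca14, Abca17 and Abcb6 most, and no scaling moved the median of all genes by over 0.1.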
